A study of Mus musculus with 4 samples.

Results

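The hybrid mammary epithelial cells at E15.5 (E, embryonic day) are non-cycling epithelial cells that carry simple keratins and lie under 2 limits set on genes of their neighbours. A cell was kept with at least 5000 UMIs (unique molecular identifiers, each counting 1 captured RNA molecule) and at most 6% of them on mitochondrial genes. It was taken as epithelial with at least 10 UMIs of Epcam, Krt8, Krt18, Krt5, Krt14 and Krt15 together, more than 2 times its UMIs of the collagen genes Col1a1, Col1a2 and Col3a1, at least 5 UMIs of Krt8 and Krt18, and under 10 UMIs of the mitotic genes Top2a, Mki67, Cenpf, Hmmr, Nusap1 and Birc5. Within that gate, a hybrid cell held under 3 UMIs of Ly6d and under 8 UMIs of Cxcl14, Pthlh and Sostdc1 together. The members were thus chosen by their own UMI counts of these genes, and those counts are given as a description. The rule gave 231 hybrid cells, of 5896 barcodes and 1630 kept cells in the series and of 816 kept cells at E15.5. The gate at E15.5 held 364 cells, of which hybrid cells made up 63.5% (exact binomial interval 58.3 to 68.4%, counting error only). The others were a Ly6d group of 25 cells (at least 3 Ly6d UMIs), a bud gene group of 107 cells (at least 8 UMIs of the 3 bud genes) and 1 cell over both limits. The hybrid share depended on these limits. It was 42.0% with Ly6d under 1 and bud genes under 4 UMIs, and 80.5% with Ly6d under 6 and bud genes under 16 UMIs.

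Cells came from the mammary tissue of female wild-type C57B6 mice (the C57 B6/N substrain in the study's methods) on embryonic days E13.5, E14.5 and E15.5 or on the day of birth (P0), with 1 library per stage made from pooled animals. Cells were dissociated with enzymes, sorted by FACS as EpCAM positive (epithelium) and EpCAM negative (mesenchyme) after removal of CD45, CD31 and Ter119 positive cells, and captured on the 10x Chromium 3′ system. With 1 library per stage nothing in the series replicates a stage, so no test between groups was possible and no p-value is given. Values are UMIs summed over the cells of a group and scaled to the group's total (CPM), with exact Poisson intervals, ratios have exact conditional intervals, and all intervals cover counting error in these libraries alone.

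Ly6d is a surface protein of stratified epithelia. Cxcl14 is a chemokine, Pthlh a secreted hormone-like ligand by which the bud acts on its mesenchyme, and Sostdc1 an antagonist of Wnt and BMP signals. The mammary bud sinks from the skin epithelium into its mesenchyme and later sprouts into a duct with an inner luminal layer, marked by simple keratins such as K8 and K18, and an outer basal layer, marked by K5 and K14. Before birth many cells carry both kinds of keratin, and the word hybrid is used for embryonic mammary cells that express luminal and basal genes together. Cd74 is the invariant chain that chaperones MHC class II molecules and also a receptor for the cytokine MIF. Ntm (neurotrimin) is an adhesion protein of the IgLON family, Epgn (epigen) is a ligand of the EGF receptor, and Rrad is a small GTPase of the RGK family, best known for inhibiting calcium channels.

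The libraries gave 28461610 UMIs at E15.5 and, in the order of age, 5705131, 3577372 and 7099444 for the other stages. Hybrid cells held 5459978 UMIs in all. Their median was 23455 UMIs per cell, from 6036 to 58588, and the median of the bud gene group was 23404. Cells of the Ly6d group were deeper, at a median of 29308. The E15.5 library shared 1 barcode with E13.5 and 1 with E14.5, and none of the 231 hybrid barcodes occurred in another library. The sort gated out cell doublets, and no doublet caller was run for cells that shared a droplet. Leaving out cells above 2 times the median depth, or with any UMI of the mesenchymal genes Pdgfra, Lum, Dcn or Twist2, left 187 hybrid cells, 64.7% of the gated cells.

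**Figure D1:**
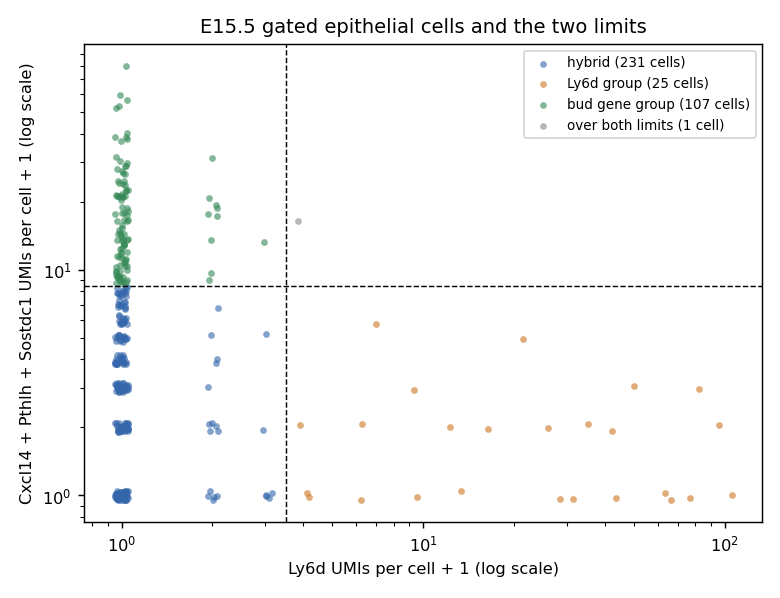
Each point is 1 gated epithelial cell of the E15.5 library, placed by its Ly6d UMIs (x axis) and its summed Cxcl14, Pthlh and Sostdc1 UMIs (y axis), both with 1 added, on log scales and with slight jitter. Dashed lines mark the limits of 3 and 8 UMIs: the Ly6d group of 25 cells spreads widely to the right, while the 231 hybrid cells (lower left) run without a gap into the 107 cells of the bud gene group (above).

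The limit on Ly6d fell in a sparse region and the limit on the bud genes in a filled one. Of the hybrid cells 210 held no Ly6d UMI, 15 held 1 and 6 held 2. Above the limit, among cells under the bud gene limit, 3 cells held 3 Ly6d UMIs, none held 4, and the Ly6d group reached 107. For the bud genes, 42 hybrid cells held 5 to 7 UMIs and 31 cells of the bud gene group held 8 to 10. The cells just inside this limit carried Cd74 at 107 CPM, Ntm at 304 CPM and Rrad at 121 CPM. Those just outside carried Cd74 at 66.1 CPM, Ntm at 173 CPM and Rrad at 86.3 CPM. Epgn was at 59.8 CPM (45.4 to 77.3) just inside and 31.6 CPM (19.8 to 47.9) just outside, the reverse of its order over the whole groups. Anxa1, a calcium-dependent membrane-binding protein, was at 133 CPM just inside and 134 CPM just outside. At the Ly6d limit, the 21 hybrid cells with 1 or 2 Ly6d UMIs carried Anxa1 at 628 CPM and Cd74 at 38.0 CPM, and the 5 cells with 3 to 5 Ly6d UMIs carried Anxa1 at 446 CPM and no Cd74 UMI, which allows up to 23.2 CPM (upper exact bound). The hybrid cells nearest to the Ly6d group thus had more Anxa1 and less Cd74 than those nearest to the bud gene group.

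Both keratin classes were present in the same cells. All of Krt8, Krt18, Krt5 and Krt14 were detected in 217 of 231 hybrid cells (93.9%, 90.0 to 96.6%), against 3 of 279 mesenchymal cells (1.08%, 0.222 to 3.11%), whose median depth was 24324 UMIs. All 4 keratins were part of the gate, which also set the mesenchymal cells apart, so these counts are a description. The same held outside the hybrid cells, with 22 of 25 cells of the Ly6d group (88.0%) and 102 of 107 of the bud gene group (95.3%). After each cell was thinned to 5000 UMIs, all 4 keratins were found in 68.4% of hybrid cells, 68.0% of the Ly6d group and 62.6% of the bud gene group.

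By level, Krt8 stood at 1158 CPM in hybrid cells, 1562 CPM in the Ly6d group and 706 CPM in the bud gene group, and Krt18 at 783, 727 and 553 CPM in the same order. Krt14 differed little, at 2743, 2838 and 2444 CPM. Krt5 was at 713 CPM in hybrid cells and 681 CPM in the bud gene group but at 1915 CPM in the Ly6d group. Hybrid cells were thus near the bud gene group for Krt5 and between the groups for Krt8, while Krt18 had its highest value in hybrid cells. Trp63, the transcription factor that maintains stratified and basal epithelium, was at 67.2 CPM in hybrid cells and detected in 136 of them. Some genes of mature layers were scarce: the alveolar luminal regulator Elf5 was at 2.01 CPM, the luminal progenitor receptor Kit at 4.40 CPM and the smooth muscle myosin Myh11 at 1.47 CPM, and the oxytocin receptor Oxtr was not detected (0 UMIs, upper exact bound 0.676 CPM). Others on the luminal and basal lists were not scarce, with the claudin Cldn4 at 1441 CPM, Anxa1 at 372 CPM and the actin-binding protein Tagln at 445 CPM.

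The 4 proposed hybrid markers set the hybrid cells apart from the Ly6d group, except for Epgn, and none of them was 2-fold higher in hybrid cells than in the bud gene group. The cells are therefore called hybrid here by the rule alone. Cd74 was at 79.7 CPM (72.4 to 87.5) in hybrid cells, where 136 of 231 held at least 1 UMI, with a median of 1 and a maximum of 14. It was at 5.24 CPM (1.43 to 13.4) in the Ly6d group and at 58.6 CPM (49.9 to 68.4) in the bud gene group. The hybrid level was 15.2 times that of the Ly6d group (5.90 to 56.1) and 1.36 times that of the bud gene group (1.13 to 1.64). Detection gave the same order, with Cd74 in 58.9% of hybrid cells, 54.2% of the bud gene group and 1.08% of mesenchymal cells. After thinning these were 28.1%, 18.7% and 0.358%. No estimate of free RNA is given here, so the source of the UMIs in mesenchymal cells was not tested.

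Ntm was at 169 CPM (158 to 181) in hybrid cells and 167 CPM (152 to 183) in the bud gene group, a ratio of 1.01 (0.906 to 1.14). In the Ly6d group Ntm was at 19.6 CPM (11.0 to 32.4), with 10 of its 15 UMIs in 1 cell, so that hybrid cells stood 8.61 times higher (lower bound 5.20). Rrad behaved alike, at 88.6 CPM (80.9 to 96.9) in hybrid cells, 99.9 CPM (88.4 to 112) in the bud gene group and 10.5 CPM (4.52 to 20.6) in the Ly6d group. With Ly6d under 1 and bud genes under 4 UMIs the log2 ratios over the Ly6d group (10 CPM added) fell from 2.27 to 1.05 for Rrad and from 2.60 to 1.87 for Ntm. Rrad was detected in 126 of 231 hybrid cells (54.5%) and in 6.81% of mesenchymal cells.

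Epgn did not follow the other markers. It was at 36.8 CPM (31.9 to 42.3) in hybrid cells, with UMIs in 77 of them, against 41.9 CPM (28.7 to 59.2) in the Ly6d group. The bud gene group had 73.4 CPM (63.7 to 84.3), of which 1 cell gave 62 of 203 Epgn UMIs, and without that cell the level was 51.4 CPM. The hybrid level was 0.501 times that of the bud gene group (0.410 to 0.612) with all cells. The highest Epgn level of the kept epithelium, 247 CPM (225 to 270), was in the 81 epithelial cells that failed the gate for low Krt8 and Krt18. Among the 4 markers Epgn was thus the one with its peak outside the gate.

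**Figure D2:**
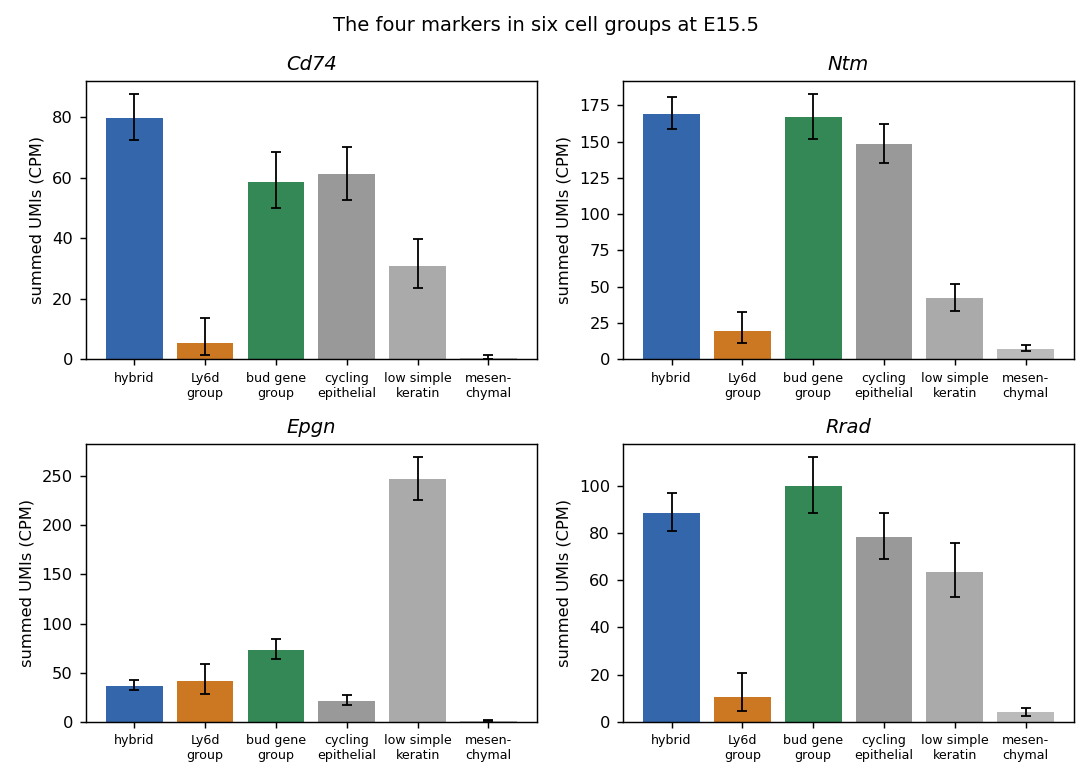
Bars give the summed CPM of Cd74, Ntm, Epgn and Rrad in 6 cell groups of the E15.5 library, with 95% exact Poisson intervals (counting error only). Cd74, Ntm and Rrad are at similar levels in hybrid cells, the bud gene group and cycling epithelial cells and low in the Ly6d group, whereas Epgn peaks at 247 CPM in the epithelial cells with low simple keratins.

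In the mouse genome GRCm38 (mm10, GENCODE M21 annotation), Ntm lies at chr9:28994750-29963141 on the minus strand, Epgn at chr5:91027464-91035215 on the plus strand and Rrad at chr8:104628070-104631327 on the minus strand. All are protein-coding genes, and each value here is a sum over the whole gene as the authors counted it.

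Cd74 was present while the chains it chaperones were nearly absent. H2-Aa, which encodes a class II alpha chain, and Ciita, the transactivator of class II genes, had no UMI in hybrid cells, while the class II beta chains H2-Ab1 and H2-Eb1 had 1 and 16 UMIs (H2-Eb1 at 2.93 CPM). Mif, the cytokine that binds Cd74, was at 1187 CPM in hybrid cells, 1746 CPM in the Ly6d group and 1101 CPM in the bud gene group. Markers of immune cells summed to 18.7 CPM over 16 genes in hybrid cells, with 8 of the 16 at 0 and Cd68, a lysosomal protein, the most abundant at 13.2 CPM, against 11.8 CPM for the same list in mesenchymal cells. Class I genes were higher. H2-D1, a class I heavy chain, was at 142 CPM in hybrid cells, 55.0 CPM in the Ly6d group and 99.9 CPM in the bud gene group. B2m, the class I light chain, was at 132, 82.5 and 110 CPM. Endothelial markers summed to 6.96 CPM over 8 genes (4 at 0, Egfl7 the most abundant), neural crest and Merkel cell markers to 5.31 CPM over 11 genes and erythroid genes to 1.47 CPM over 7. Mesenchymal markers summed to 255 CPM over 16 genes in hybrid cells, with Fn1 at 142 CPM the most abundant, against 158 CPM in the Ly6d group, 349 CPM in the bud gene group and 20874 CPM in mesenchymal cells.

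Promoters of a pair of genes that frame the hybrid cells are shown here because they stand at opposite ends of the comparison with the Ly6d group. Cxcl10, a chemokine induced by interferon and NF-kB, had the largest ratio of hybrid cells over the Ly6d group among the compared genes outside the rule, and Krtdap, a secreted protein of differentiating keratinocytes, was among the 15 smallest. The sequences are the 250 bases before the RefSeq start site (GRCm38.p6), for Cxcl10 chr5:92348890-92349139 on the minus strand and for Krtdap chr7:30787655-30787904 on the plus strand. Capitals mark matches to GGGNNTTCC (letters of an NF-kB site) and TGANTCA (letters of an AP-1 site), searched on both strands.
Cxcl10: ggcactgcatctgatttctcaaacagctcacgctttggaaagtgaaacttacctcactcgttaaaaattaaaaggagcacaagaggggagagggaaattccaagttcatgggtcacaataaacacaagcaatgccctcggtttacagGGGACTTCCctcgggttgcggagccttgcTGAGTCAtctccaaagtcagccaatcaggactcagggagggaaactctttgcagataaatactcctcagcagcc
Krtdap: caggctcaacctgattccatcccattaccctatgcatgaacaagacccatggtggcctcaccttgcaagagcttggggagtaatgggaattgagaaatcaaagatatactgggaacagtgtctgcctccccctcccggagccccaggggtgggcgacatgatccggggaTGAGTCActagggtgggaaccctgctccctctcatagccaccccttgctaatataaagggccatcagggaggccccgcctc
The Cxcl10 window held GGGACTTCC at bases -103 to -95 from the start site and TGAGTCA at -74 to -68. The Krtdap window held TGAGTCA at -81 to -75. Of all 32851 promoter windows of this length, 4.98% held the NF-kB letters and 6.75% the AP-1 letters. Among the 9 genes with the largest ratio of hybrid cells over the Ly6d group that had a promoter in the table, 2 held the NF-kB letters (Cxcl10 and Emp3) and 3 the AP-1 letters, and among the 10 with the smallest ratio 1 held the NF-kB letters and 4 the AP-1 letters. Such matches describe the letters in these windows and were not tested.

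Against the Ly6d group, 4 of 13 compared mammary bud genes were at least 2-fold higher in hybrid cells and 8 of 11 suprabasal skin genes at least 2-fold lower, leaving out genes of the rule. A gene was counted as higher or lower when its CPM ratio, with 10 CPM added to both sides, was at least 2-fold, among genes with at least 50 UMIs over both groups. Of 7696 genes, 286 (3.72%) were higher and 114 (1.48%) lower in hybrid cells than in the Ly6d group, with a median log2 ratio of 0.089. The groups were made from counts of the same cells, so these numbers describe them and test nothing.

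Cxcl10 was at 633 CPM (612 to 655) in hybrid cells and detected in 175 of 231, against 40.6 CPM (27.6 to 57.6) in the Ly6d group, a 15.6-fold difference (11.0 to 23.0). Its log2 ratio with 10 CPM added was 3.67, and it was 2.35 at a mitochondrial maximum of 10% and 1.37 with Ly6d under 1 and bud genes under 4 UMIs. Its share of cells was 75.8% in hybrid cells, 78.5% in the bud gene group and 20.8% in mesenchymal cells, and after thinning 57.1%, 61.7% and 8.60%. Fst, which encodes the activin antagonist follistatin, was at 1300 against 293 CPM (4.43-fold), and Sox4, a transcription factor of embryonic epithelia and progenitors, at 536 against 83.8 CPM (6.39-fold). The growth factor Ptn was at 656 against 123 CPM. Il24, a cytokine of the IL-10 family, was at 70.9 against 2.62 CPM, the latter from 2 UMIs. Each of these 5 genes was thus higher in hybrid cells than in the Ly6d group.

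Of 24 mammary bud genes, 15 were abundant enough to compare, and 13 of these were not part of the rule. All 13 had a ratio above 1 and 4 were at least 2-fold higher, with a median log2 ratio of 0.91. The 4 were Ndnf, a secreted neurotrophic factor, and the Wnt ligands Wnt10b, Wnt6 and Wnt3. Wnt6 was at 114 CPM in hybrid cells, 5.44 times the Ly6d group (3.32 to 9.57), and Wnt3 at 58.2 against 6.55 CPM. Relatives of Ntm and Rrad were also higher. Of the other IgLON proteins, Lsamp was at 18.7 CPM against 0 UMIs and Negr1 at 43.4 CPM against 3.93 CPM (3 UMIs), and the RGK protein Rem2 at 12.1 CPM against 0 UMIs. A count of 0 in the small Ly6d group sets no fold for Lsamp or Rem2. Class I presentation had 3 of 4 compared genes at least 2-fold higher (H2-K1, H2-D1 and Tapbp).

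Among NF-kB targets 11 of 15 were compared, with 2 higher, 1 lower and a median log2 ratio of 0.55. The adhesion molecule Icam1 was at 153 against 30.1 CPM (5.09-fold) and the subunit Nfkb1 at 156 against 51.1 CPM. With Ly6d under 1 and bud genes under 4 UMIs Icam1 no longer passed 2-fold (log2 ratio 0.96). The lower one, Cxcl2, rested on 1 cell of the Ly6d group with 25 of its 31 UMIs. Heat shock genes, which rise in stressed cells, were compared for 15 of 15, with 1 higher and a median log2 ratio of 0.30, and immediate early genes for 24 of 24, with 1 higher (Atf3), 2 lower (Fos and Fosb) and a median of -0.12. The lower Fos value rested on 1 cell, which gave 261 of the 279 Fos UMIs in the Ly6d group, and without its top cell neither Fos nor Fosb was lower.

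Suprabasal and periderm markers, genes of the outer layers of embryonic skin, were compared for 12 of 23. Of the 11 that the rule did not use, 8 were at least 2-fold lower in hybrid cells, with a median log2 ratio of -1.52 and 1 ratio above 1. Krtdap was at 634 CPM (613 to 656) in hybrid cells and 3489 CPM (3358 to 3624) in the Ly6d group, 5.50-fold lower (5.23 to 5.79). Dmkn (dermokine) was at 578 against 1989 CPM. Krtdap was detected more often in hybrid than in mesenchymal cells, in 81.0% and 17.6% of them, and after thinning in 47.6% and 3.58%. Krtdap thus differed between these groups in level, while most hybrid cells still held it. Of 18 compared stress and wound keratinocyte genes, 3 were higher (Il24, Has2 and Itga2) and 4 lower (Krt6a, Ptgs2, Sprr1a and Sprr1b), with a median log2 ratio of -0.37. The cornified envelope precursor Sprr1a was at 124 against 858 CPM.

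The luminal list went in both directions. Of 19 compared genes outside the rule, 3 were higher in hybrid cells (Cldn7, Aldh1a3 and Tfap2b) and 7 lower (Krt19, Krt7, Lgals3, Anxa1, Plet1, Lypd3 and Elf3). Anxa1 was at 372 CPM (356 to 388) against 1019 CPM (949 to 1093), 2.74-fold lower, and Lgals3, the carbohydrate-binding galectin-3, at 50.2 against 557 CPM. Lypd3 was at 131 against 360 CPM and Plet1 at 181 against 486 CPM. The values of Krt7 and Elf3 rested on 1 cell each, since neither stayed 2-fold lower without its top cell, and Krt19 had 183 of 257 UMIs of the Ly6d group in 1 cell. Of 18 basal genes outside the rule, 3 were higher (Itgb1, Col17a1 and Sparc) and 1 lower (Acta2, which was not lower without its top cell). Among 15 junction genes outside the rule, 1 was higher (Dsg2) and 3 lower (Pkp1, Dsc2 and Dsc3), desmosome proteins all.

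**Figure D3:**
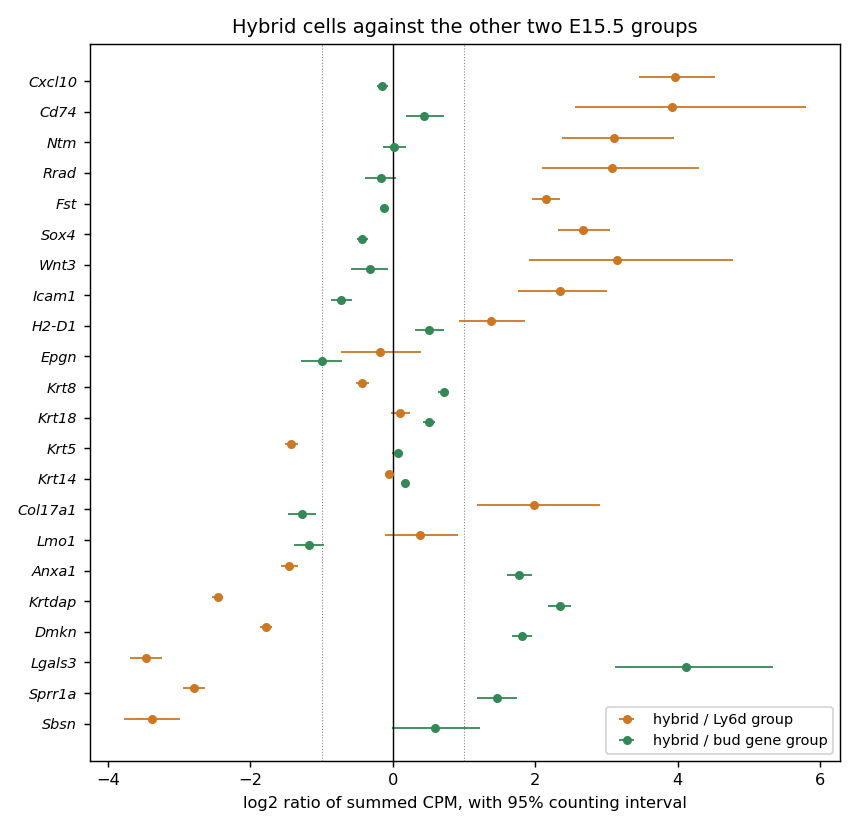
Points give the log2 ratio of summed CPM of each gene in hybrid cells over the Ly6d group (orange) and over the bud gene group (green), with 95% conditional binomial intervals, and dotted lines mark 2-fold. Cxcl10, Cd74, Ntm and Rrad lie far right for the Ly6d group and near 0 for the bud gene group, while Anxa1, Krtdap, Dmkn and Lgals3 lie left of 0 for the Ly6d group and right of 0 for the bud gene group.

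Against the bud gene group few genes of the hybrid cells passed 2-fold, and several skin and junction genes were among those higher. Of 8459 genes, 38 (0.449%) were at least 2-fold higher and 21 (0.248%) at least 2-fold lower, with a median log2 ratio of -0.032. Krtdap was at 634 CPM against 125 CPM (5.08-fold, 4.55 to 5.69), Dmkn at 578 against 164 CPM (3.52-fold) and Lgals3 at 50.2 against 2.89 CPM (17.3-fold, 8.68 to 40.6). Without cells with skin markers the log2 ratio of Lgals3 was 0.33, under 2-fold. Anxa1 was at 372 against 109 CPM (3.42-fold, 3.03 to 3.88), in 61.9% of hybrid cells and 35.5% of the bud gene group, and after thinning in 44.2% and 20.6%. These same genes were lower than in the Ly6d group, so hybrid cells lay between the groups. The rule used genes of both groups, so this place follows largely from the choice.

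All 11 compared suprabasal genes had a ratio above 1 over the bud gene group, with 4 at least 2-fold higher (Krtdap, Krt4, Krt6a and Dmkn) and a median log2 ratio of 0.57. The higher Krt4 value rested on 1 hybrid cell with all 279 of its UMIs there. Junction genes had 4 of 15 at least 2-fold higher (Pkp1, Dsc2, Dsc3 and Cldn1), and stress and wound keratinocyte genes 4 of 20 (Krt6a, Krt16, Krt17 and Sprr1a) with 1 lower (Il24). Krt16, a keratin of wounded and fast-growing epidermis, was at 117 against 43.0 CPM (2.72-fold), though with Ly6d under 1 and bud genes under 4 UMIs its log2 ratio was -0.15, and without cells with skin markers 0.90. Krt17 was at 765 against 375 CPM. Of 19 luminal genes 3 were higher (Cldn3, Lgals3 and Anxa1) and 1 lower (Cited1, which rested on 1 cell with 39 of its 47 UMIs in the bud gene group).

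Of the 21 genes lower in hybrid cells than in the bud gene group, 3 are given here. Igfbp5, a secreted binder of insulin-like growth factors, was at 57.3 against 174 CPM (0.329 times), the hemidesmosome collagen Col17a1 at 67.2 against 163 CPM (0.413 times) and the transcription cofactor Lmo1 at 63.2 against 143 CPM (0.441 times). Mammary bud genes outside the rule had none of 16 past the fold in either direction, but 1 of 16 had a ratio above 1 and their median log2 ratio was -0.33. Cxcl10 was at 633 against 702 CPM and Fst at 1300 against 1417 CPM. Most bud genes were thus somewhat lower in hybrid cells than in the group chosen for high bud genes, and none by 2-fold outside the rule.

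Among the 744 of 7681 genes at least 2-fold apart between the Ly6d group and the bud gene group, hybrid cells lay between them for 692 (93.01%) and nearer to the bud gene group for 652 (87.6%). They were highest for 43 and lowest for 9. These genes were picked because the other groups differ, and the rule used genes of both, so a place between them follows largely from the choice and nothing is read from the count.

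Skin markers were widespread among hybrid cells. At least 3 UMIs of Krt1, Krt10, Krtdap and Sbsn together were found in 149 of 231 hybrid cells (64.5%, 58.0 to 70.7%), in 25 of 25 cells of the Ly6d group, in 54 of 107 of the bud gene group (50.5%) and in 33 of 279 mesenchymal cells (11.8%). Without cells at this limit 82 hybrid cells remained, the Ly6d group was empty, and Krtdap no longer differed from the bud gene group (log2 ratio -0.093). Krtdap was itself counted in that limit. The part of skin cells in the differences between groups was not tested.

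A single hybrid cell carried a distinct set of counts. It held all 279 Krt4 UMIs of the hybrid cells, 878 of their 1386 Krt15 UMIs, 74 of 274 Lgals3 UMIs and 128 of 2029 Anxa1 UMIs, with 1 Krt14 UMI and none of Cd74. Krt4 is a keratin of wet stratified epithelia such as the oesophagus and of the embryonic periderm. Krt15 without its top cell was at 93.4 CPM in place of 254 CPM, and the Ly6d group likewise had its 697 Krt4 UMIs in 1 cell.

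Splitting the hybrid cells at the median of Epgn and Rrad together, as a share of each cell's UMIs (69.0 CPM), gave 115 high and 116 low cells with median depths of 23230 and 23511 UMIs. Of 7385 genes, 11 (0.149%) were at least 2-fold higher and 16 (0.217%) at least 2-fold lower in the high cells, counts that include Epgn and Rrad themselves. Without the Krt4 cell the 16 lower genes became 10, and without cells with skin markers 3. Cd74 was at 108 against 49.9 CPM (2.16-fold, 1.76 to 2.67, and 1.97-fold with 10 CPM added, so not among the 11), in 86 against 50 cells, and Ntm at 208 against 129 CPM (1.61-fold). Krt16 was at 184 against 46.6 CPM (3.96-fold, 3.25 to 4.85), the hyaluronan synthase Has2 at 30.0 against 7.51 CPM and Igfbp3 at 224 against 89.0 CPM. Anxa1 was 2.40-fold lower (221 against 530 CPM), Krtdap 2.15-fold lower (407 against 873 CPM) and Lgals3 5.49-fold lower (15.7 against 86.4 CPM). Without cells with skin markers none of these 3 was 2-fold lower, at log2 ratios of -0.71 for Anxa1, -0.012 for Krtdap and 0.21 for Lgals3, and Krt16 was at 0.84 and Cd74 at 1.06 (0.98 with all cells). Krtdap is itself one of those skin markers.

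The genes of the pair were often found in different hybrid cells. Epgn and Rrad were found together in 48 hybrid cells, Epgn alone in 29, Rrad alone in 78 and neither in 76. Across the 231 cells, which share a library and differ in depth, the Spearman correlation of their shares was 0.11. Rrad correlated at 0.40 with Cd74, 0.34 with Ntm, 0.33 with Icam1 and -0.30 with Anxa1, while Epgn gave 0.054, 0.016, 0.066 and -0.033 with the same genes. These weak coefficients in sparse counts are given as a description.

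With Rrad alone as the divider (median 37.3 CPM), Rrad was found in 115 of 115 high cells and 11 of 116 low cells, and Epgn was at 28.8 CPM in the high cells and 44.9 CPM in the low cells (0.641 times, 0.477 to 0.858). The 2 hybrid cells with the highest Epgn share, both Rrad-low, gave 36 of the 122 Epgn UMIs of the low cells, and without them the ratio was 0.895 (0.651 to 1.23). By cells, Epgn was found in 42 of the 115 high and 35 of the 116 low cells, and in 38.1% of hybrid cells with a Rrad UMI and 27.6% of those without. The order for Epgn thus differed between summed level and detection. Of 7385 genes, 19 (0.257%) were at least 2-fold higher and 37 (0.501%) at least 2-fold lower. The 19 include Rrad itself, and 2 of the 19 and 2 of the 37 were found in under 10 cells. Cd74 was at 116 CPM in Rrad-high and 43.1 CPM in Rrad-low cells (2.69-fold, 2.17 to 3.36), with UMIs in 89 and 47 cells. Ntm was at 227 against 111 CPM (2.04-fold, 1.77 to 2.35, and 1.95-fold with 10 CPM added, so not among the 19) and Cxcl10 at 852 against 413 CPM (2.06-fold, 1.92 to 2.22). Rrad-high hybrid cells thus held more Cd74, Ntm and Cxcl10.

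NF-kB targets and mammary bud genes mostly had ratios above 1 in Rrad-high over Rrad-low cells, and few of them passed 2-fold. Icam1 was at 215 against 90.6 CPM (2.38-fold), and all 11 compared NF-kB targets had a ratio above 1, with Icam1 the one past 2-fold and a median log2 ratio of 0.48 beside 0.030 over all genes. Tmem158, a membrane protein induced by Ras, was at 121 against 40.5 CPM (2.98-fold), the secreted hormone Stc1 at 65.3 against 20.6 CPM (3.17-fold), the Wnt modulator Kremen2 at 71.4 against 27.2 CPM and the growth factor Bmp2 at 46.7 CPM in Rrad-high cells (3.02-fold, 2.11 to 4.39). Of 13 mammary bud genes outside the rule, 12 had a ratio above 1 and 1 was past 2-fold (Bmp2), with a median of 0.47. Class I genes had a median of 0.57, with H2-D1 at 185 against 99.8 CPM. Heat shock genes also had 12 of 15 ratios above 1 (median 0.23) and immediate early genes 19 of 23 (median 0.22), with none past 2-fold. Whether these lists share a cause with the other differences was not tested.

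Suprabasal skin genes went the other way, as did some genes of the luminal list. Of 17 compared luminal-list genes outside the rule, 3 were at least 2-fold lower in Rrad-high cells (Cldn3, Lgals3 and Anxa1). Another 6 of the 17 had a ratio above 1, and the median log2 ratio was -0.077. Krtdap was at 216 CPM in Rrad-high and 1056 CPM in Rrad-low cells (4.89-fold lower, 4.47 to 5.35), Anxa1 at 145 against 600 CPM (4.13-fold lower, 3.70 to 4.61) and Dmkn at 328 against 830 CPM. Detection moved less: Krtdap was found in 91 of 115 and 96 of 116 cells, and Anxa1 in 58 and 85. None of the 11 suprabasal genes had a ratio above 1, and 4 were at least 2-fold lower (Krtdap, Krt4, Krt6a and Dmkn). Of these, Krt4 rested on 1 Rrad-low cell. At least 3 skin UMIs were found in 58.3% of Rrad-high cells (48.7 to 67.4%) and 70.7% of Rrad-low cells (61.5 to 78.8%), and the part of this difference in the values was not tested. Of the keratins of the gate, Krt8, Krt5 and Krt14 differed little, and no value is given here for Krt18. Krt8 was at 1032 against 1286 CPM, Krt5 at 690 against 737 CPM and Krt14 at 2948 against 2537 CPM. Krt15 is not included here, since 878 of its 1386 hybrid UMIs lay in 1 cell, which held no Rrad UMI.

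Epgn as the divider gave a smaller set that overlapped the set by Rrad in part. Krt16 and B230312C02Rik were at least 2-fold higher and Krt4 and Lgals3 at least 2-fold lower by either gene. Of these, B230312C02Rik was found in 8 hybrid cells and Krt4 in 1. The Krt4 cell held no UMI of Epgn or Rrad, so it lay on the low side of both divisions, and it held 74 of 274 Lgals3 UMIs. Olfr1369-ps1 and Gm29666, found in 3 and 9 cells, passed 2-fold in opposite directions. Of 7385 genes, 8 (0.108%) were at least 2-fold higher and 6 (0.0812%) at least 2-fold lower in the 77 cells with an Epgn UMI than in the 154 without. The 8 include Epgn itself, and 2 of the 8 and 2 of the 6 were found in under 10 cells. Cd74 was at 84.8 against 76.9 CPM (1.10 times, 0.902 to 1.34) and Ntm at 159 against 175 CPM (0.906 times, 0.787 to 1.04). The EGF receptor ligand Areg was at 103 against 49.9 CPM (2.06-fold, and 1.88-fold with 10 CPM added, so not among the 8), Has2 at 34.5 against 10.7 CPM (3.22-fold), and Krt16 at 179 against 83.7 CPM (2.14-fold). Serpinb2, an inhibitor of plasminogen activators, was at 295 against 139 CPM with 177 of 1057 UMIs in 1 cell. Areg and Serpinb2 did not follow Rrad, with ratios of 1.01 (0.817 to 1.24) and 0.996 (0.881 to 1.13) in Rrad-high over Rrad-low cells. Has2 was at 27.0 against 11.0 CPM in Rrad-high over Rrad-low cells, which did not reach 2-fold with 10 CPM added (1.76-fold). Cd74, Ntm and Cxcl10 thus differed by Rrad more than by Epgn, and Areg and Serpinb2 by Epgn more than by Rrad, differences that were not tested. The divisions were also unlike, at the median for Rrad and by any UMI for the sparser Epgn.

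**Figure D4:**
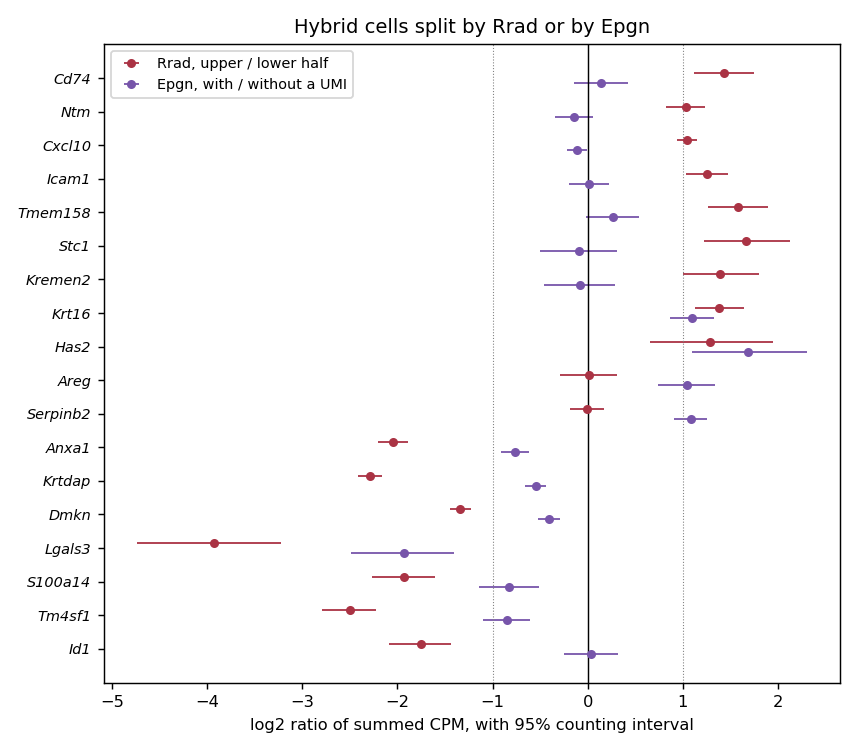
Points give the log2 ratio of summed CPM between hybrid cells above and below the Rrad median (red, 115 and 116 cells) and between hybrid cells with and without an Epgn UMI (purple, 77 and 154 cells), with 95% conditional binomial intervals. Cd74, Ntm, Cxcl10 and Icam1 lie near or above 1 for Rrad and near 0 for Epgn, and Krtdap, Anxa1 and Lgals3 are lower with both genes, further so with Rrad.

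The same division by Rrad was made in other epithelial cells of the E15.5 library, chosen after the hybrid values were seen. In the bud gene group (53 high and 54 low cells) Cd74 differed 1.31-fold (0.944 to 1.82), Ntm 1.24-fold (1.02 to 1.496) and Icam1 1.28-fold (1.10 to 1.498), and Cxcl10 0.944-fold (0.863 to 1.03). In cycling epithelial cells (40 and 41 cells) Cd74 differed 2.29-fold (1.66 to 3.19) and Cxcl10 2.03-fold (1.84 to 2.25), but Ntm 0.786-fold (0.652 to 0.946) and Icam1 0.916-fold (0.777 to 1.08). Krt16 differed 2.61-fold in hybrid cells, 0.860-fold (0.590 to 1.25) in the bud gene group and 1.16-fold (0.953 to 1.42) in cycling cells. Tmem158 was higher in each, at 2.98-fold in hybrid cells, 1.54-fold (1.21 to 1.98) in the bud gene group and 1.37-fold (1.04 to 1.83) in cycling cells. Krtdap gave 0.932 (0.750 to 1.16) in the bud gene group and 0.828 (0.747 to 0.918) in cycling cells, against 0.205 (0.187 to 0.224) in hybrid cells. Tm4sf1, a tetraspanin-like membrane protein, turned over, with 0.176 (0.144 to 0.214) in hybrid cells, 2.62 (1.97 to 3.54) in the bud gene group and 3.80 (2.91 to 5.01) in cycling cells. In hybrid cells 1 cell gave 157 of 800 Tm4sf1 UMIs, and without it Rrad-high cells stayed 3.77-fold lower (10 CPM added). Some other genes lower in Rrad-high hybrid cells were also lower in 1 of these groups. Anxa1 gave 0.242 in hybrid cells and 0.514 (0.403 to 0.653) in the bud gene group but 0.954 (0.809 to 1.12) in cycling cells. In cycling cells Lgals3 gave 0.520 (0.345 to 0.773) and S100a14, a calcium-binding protein, 0.450 (0.330 to 0.607), whereas in the bud gene group both intervals held 1, at 0.525 (0.0815 to 2.70) for Lgals3 and 0.729 (0.434 to 1.22) for S100a14. The ratios thus varied by gene and group, and the differences between groups were not tested.

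In the gated epithelium of the other libraries the markers had different levels, but stage cannot be told apart from library, dissection and, for E15.5, the version of Cell Ranger. Cd74 was at 40.8 CPM (27.5 to 58.2) at E13.5 in 43 cells, 67.6 CPM (48.9 to 91.0) at E14.5 in 22 cells, 66.6 CPM (61.4 to 72.2) at E15.5 in 364 cells and 1.34 CPM (0.277 to 3.93) at P0 in 212 cells. Ntm was at 62.5, 342, 155 and 0.448 CPM in the same order, and Rrad at 9.52, 83.3, 85.9 and 6.27 CPM. Epgn was at 36.7, 15.7, 48.5 and 58.2 CPM. Cd74, Ntm and Rrad were thus lowest in the P0 library, apart from Rrad at E13.5, whose interval (3.83 to 19.6) overlapped that at P0 (3.43 to 10.5), while Epgn at P0 (48.6 to 69.1) overlapped that at E15.5 (44.1 to 53.3). In E14.5 and E15.5 cells the levels of Cd74 and of Rrad overlapped within their intervals.

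The same rule applied to the other libraries gave 98 cells at P0, 16 at E13.5 and 3 at E14.5, and at P0 it picked cells with other keratin levels. Gated cells had a median of 9832 UMIs at P0, 17328 at E13.5 and 27540 at E14.5, against 23691.5 at E15.5. The limits of the rule are fixed UMI counts, so they did not select alike across libraries. The 98 cells at P0 carried Krt8 at 5293 CPM and Krt14 at 684 CPM, against 1158 and 2743 CPM in the 231 hybrid cells at E15.5. Their Cd74 was at 1.91 CPM, Rrad at 4.77 CPM and Krtdap at 5.73 CPM, and their Epgn at 45.8 CPM. The 16 cells at E13.5 carried Anxa1 at 1180 CPM and Cd74 at 14.6 CPM. The 3 cells at E14.5 carried Ntm at 180 CPM (95.9 to 308), overlapping 169 CPM (158 to 181) at E15.5, with Cd74 at 27.7 CPM (3.35 to 100.1) from 2 UMIs and no Rrad UMI (upper exact bound 51.1 CPM).

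**Figure D5:**
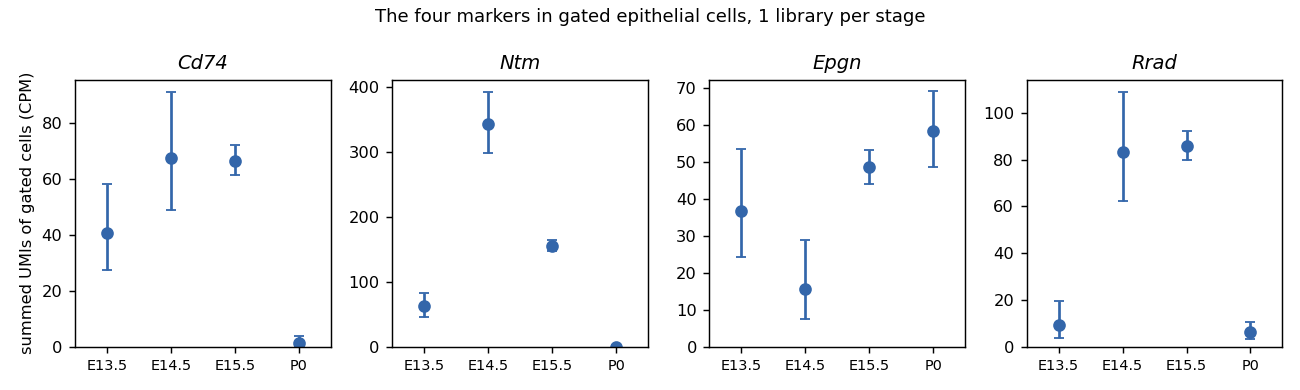
Points give the summed CPM of each marker in gated epithelial cells of the 4 libraries (43, 22, 364 and 212 cells from E13.5 to P0), with 95% exact Poisson intervals. Cd74, Ntm and Rrad are near 0 at P0 while Epgn is at 58.2 CPM, and stage cannot be told apart from library.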

How the data were processed

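The authors deposited, for each of the 4 libraries, a table of raw UMI counts per gene and cell barcode, made with Cell Ranger on mm10. Per the file headers version 3.1.0 was used at E15.5 and 6.0.0 at the other stages, while the submitters' processing notes name 6.0.0 throughout. No normalization had been applied. The members and gene lists were chosen with earlier results of these data known.

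Counts were summed over the cells of a group and expressed as CPM of the group's UMIs. Shares have exact binomial (Clopper-Pearson), CPM exact Poisson and ratios conditional binomial 95% intervals, and for shares cells were also thinned to 5000 UMIs. Named genes were the 4 markers, the members of 24 lists, and the 15 genes with the largest and the 15 with the smallest ratio per comparison, without rule, mitochondrial and ribosomal protein genes. Some were printed with values. On simulated counts for the Epgn and Rrad division (7260 genes, 200 of them changed 4-fold), 98.5% of changed genes and 0% of the others passed the fold, and 95.5% of intervals held the true ratio. Folds under 4 were not tested. In the division itself, 3 of the 11 higher and 1 of the 16 lower genes were found in under 10 cells. Whether the simulated shares hold for genes found in so few cells was not tested. Python 3.11.15, numpy 2.4.6 and scipy 1.17.1 were used. Alternatives varied the filters, limits, fold, added CPM and division.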

Additional observations from a re-analysis of the deposited data

How the results depend on the processing

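No paired analysis was possible because each stage is 1 library and the labels carry no replicate numbers. For 12 genes followed through all alternatives, 242 of 392 log2 ratios were labelled as unchanged and 142 as moved. Another 8 turned a sign that their interval had set, while 32 of 92 counts moved. The labels set ratios with 10 CPM added against counting intervals with none added. Some main values thus lay outside their own interval, such as Lgals3 over the bud gene group (2.22, interval 3.12 to 5.34). Very small shifts could then be labelled as moved, so the 242 and 142 do not measure shifts beyond counting error. The cause of the changes was not tested except where the alternative counts fewer cells or genes. Hybrid cells numbered 153 with Ly6d under 1 and bud genes under 4 UMIs (42.0% of gated cells) and 293 with Ly6d under 6 and bud genes under 16 UMIs (80.5%). They numbered 82 without cells with skin markers. Against the Ly6d group the 286 higher and 114 lower genes became 79 and 59 under the strict limits, 1078 and 450 at 1.5-fold, 177 and 62 with at least 200 UMIs and 877 and 262 with no CPM added. Without cells with skin markers no cell of the Ly6d group was left and the comparison could not be fitted. Against the bud gene group the 38 higher and 21 lower genes became 144 and 166 at 1.5-fold, 122 and 140 with no CPM added and 18 and 13 without cells with skin markers, and the lower count was 36 with Ly6d under 6 and bud genes under 16 UMIs and 12 with at least 200 UMIs. For the division by Epgn and Rrad, the 11 higher genes became 7 at a mitochondrial maximum of 10%, 96 at 1.5-fold, 5 with at least 200 UMIs, 54 with no CPM added, 19 by Rrad alone and 35 when only the cells with the highest and lowest shares were set against each other. The 16 lower genes became 10 under the strict limits, 3 without cells with skin markers, 69 at 1.5-fold, 52 with no CPM added, 6 by Epgn alone, 37 by Rrad alone, 34 between the cells with the highest and lowest shares and 10 without the Krt4 cell, an alternative added after the data were seen. A further 11 turned from a ratio whose interval held 0, among them Krt5 (-0.068 at a mitochondrial maximum of 10%), Ntm (-0.49, strict limits) and Rrad (0.25, loose limits) over the bud gene group and Epgn over the Ly6d group (0.17, loose limits). The 8 turned signs were log2 ratios over the bud gene group of Krt16 (-0.15, strict limits), Cxcl10 (0.088 with the loose limits, 0.25 without cells with skin markers) and Krtdap (-0.093 without cells with skin markers), and within hybrid cells of Lgals3 (0.21 without cells with skin markers), Ntm (-0.13 by Epgn alone), Cxcl10 (-0.11 by Epgn alone) and Epgn (-0.50 by Rrad alone). Genes under 50 UMIs over both groups were not compared, which for the 25 cells of the Ly6d group leaves out most of their scarce genes.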
